A study of Rattus norvegicus with 9 samples.

Results

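The cytosolic ribosomal protein genes were followed across 3 groups of neonatal rat ventricular myocytes, primary cardiomyocytes taken from the ventricles of newborn rats. Members were the rows of the read count table whose symbol began with Rpl or Rps and a digit, without the S6 kinases (Rps6k) and the pseudogene symbols (-ps), and with at least 10 reads in 3 or more of the 9 samples. They numbered 79 of the 17327 rows, 46 with large subunit symbols (Rpl) and 33 with small subunit symbols (Rps). All 79 also passed the filter on low counts, which left 11873 genes tested. The 3 groups received vehicle, phenylephrine at 50 µM or IGF1 at 10 nM for 48 hours, with 3 samples each. Phenylephrine is an alpha-adrenergic agonist and IGF1 a growth factor that signals through a receptor tyrosine kinase, and both are used to make cultured heart cells grow. The labels name no genetic change and give neither the strain nor the exact age of the rats, and whether the samples of a group were separate cultures is not given either. The p-values therefore rest on the spread among the 9 deposited samples, and that spread may be technical.

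Each ribosome joins a small subunit, which decodes the messenger RNA, to a large subunit, which links the amino acids, and ribosomal proteins fold and hold the ribosomal RNA in both. Cells make these proteins in matched amounts, and their transcripts usually begin with a C and a run of pyrimidines, the terminal oligopyrimidine motif through which mTORC1 signalling controls their translation. Heart muscle cells make more ribosomes as they enlarge.

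The motif was looked for at the annotated starts, since it is the sequence feature that these genes are known to share. It was searched on the sense strand as a C followed by at least 4 pyrimidines, in RefSeq promoter sequences of the GRCr8 rat assembly. Of the 79 members, 64 had an entry, 62 by their own symbol and 2 (Rpl36al and Rpl39l) by an older one. The motif began exactly at the annotated start in 22 of these 64 members (34.4%) and in 881 of all 33469 entries of the table (2.63%). It began within 10 bases of the start in 47 members (73.4%) and in 28.9% of all entries. Among 63 mitochondrial ribosomal protein genes, which encode the proteins of the other ribosome of the cell, it began at the start in 2 (3.17%). The windows below run for 30 bases, with the annotated start at the first base after the midpoint, and capitals mark the C and the pyrimidines that follow it, counted from the start where the motif lies there. The first 4 show the motif at the start, in genes that all fell with IGF1 and of which only Rpl37 rose with phenylephrine. Rpl38 and Rpl4, which had some of the largest increases with phenylephrine, carry it a few bases upstream. Rpl22l1, Rps27l and Rps19bp1, the members that IGF1 raised, have none within 10 bases. They are among 17 members with none there, of which 3 were higher and 5 lower with IGF1 (24.7% and 23.4% of all genes tested). Rpl7a and Rpl3, which fell with IGF1, have none there either.
Rpl37: tggtaggcgtactttCTCTTCCggtctctt
Rpl10: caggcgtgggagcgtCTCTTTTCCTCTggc
Rpl22: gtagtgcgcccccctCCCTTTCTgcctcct
Rps27: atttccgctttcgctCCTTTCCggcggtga
Rpl38: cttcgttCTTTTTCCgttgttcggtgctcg
Rpl4: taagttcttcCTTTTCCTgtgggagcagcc
Rpl22l1: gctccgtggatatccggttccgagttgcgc
Rps27l: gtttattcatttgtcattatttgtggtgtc
Rps19bp1: cagcgtgtgggcggggcttggcagcatgtc
In GRCr8 the window of Rpl37 is chr2:55942930-55942959 on the plus strand, that of Rpl10 chrX:157205835-157205864 on the plus strand, that of Rpl22 chr5:168117946-168117975 on the plus strand and that of Rps27 chr2:177964592-177964621 on the minus strand. The window of Rpl38 is chr10:100200420-100200449 on the plus strand and that of Rpl4 chr8:73566462-73566491 on the plus strand. The window of Rpl22l1 is chr2:113683181-113683210 on the plus strand, that of Rps27l chr8:76443643-76443672 on the plus strand and that of Rps19bp1 chr7:113693009-113693038 on the minus strand. A match describes these letters only, and an annotated start can lie some bases from the one the cells used. The counts were made on another build, rn5, for which no coordinates are given here.

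Total counts ran from 31274396 to 48505265 reads per sample. IGF1 replicate 1 stood apart from the rest of its group. Between 361 and 414 genes differed by over 1.5-fold between it and the other IGF1 samples. The remaining pairs within groups had 39 to 110 such genes. The counts of members called, the IGF1 counts of related gene lists and named members whose call changed are given with and without it. Counts by subunit, motif groups, cell markers and single genes of those lists are given only with it. Chi-square per degree of freedom over the members alone was 13.0 and 14.6 for the pairs that include it and 4.08 to 11.7 for the others, and no pair was as alike as sampling noise allows. Scaling bears on the members as well. The 10 genes with the most reads held 9.41% to 9.42% of the reads with phenylephrine and 9.53% in IGF1 replicate 1, against 7.13% to 7.59% in the other samples. Levels are CPM, counts per library scaled to a common total, after TMM scaling (a trimmed mean of log ratios between libraries), and every adjusted p is from edgeR's quasi-likelihood test with Benjamini-Hochberg adjustment over all 11873 genes.

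The read total of a member over the 9 samples ran from 144 to 385239, and 71 of the 79 had at least 10000. Just outside the rule lay Rpl3l, the striated muscle paralog of Rpl3, with 9, 2 and 15 reads in vehicle, 0, 2 and 5 in the phenylephrine group and 8, 1 and 6 in the IGF1 group. Just inside lay Rpl37a, with 16, 23 and 30 reads in vehicle, 6, 14 and 10 with phenylephrine and 6, 22 and 17 with IGF1, and Rps19 with 17 to 45 reads per sample. Ribosomal protein genes have many processed copies in the genome. RefSeq names 858 pseudogene loci for 75 of the members, with a median of 11 and a maximum of 36, for Rps2. Reads that match several loci can be split or lost in counting, so the level of any member and the difference between members are uncertain, and members were not ranked by level. The sources used here do not give the use of strand in counting.

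Together the 79 genes took 3.15%, 3.12% and 3.15% of all reads in vehicle. They took 3.24%, 3.13% and 3.10% in the phenylephrine group and 2.73%, 2.59% and 2.66% in the IGF1 group. The widest exact binomial 95% interval of a share was ± 0.0062 percentage points, which covers counting error only. The IGF1 samples lay below all others by this measure, while those with phenylephrine straddled the vehicle samples. The mean share was 3.14% ± 0.016 (SD, n = 3) in vehicle, 3.16% ± 0.078 (SD, n = 3) with phenylephrine and 2.66% ± 0.070 (SD, n = 3) with IGF1. After TMM scaling the summed level was 29465 ± 200.2 CPM (SD, n = 3) in vehicle and 33847 ± 902 CPM (SD, n = 3) with phenylephrine, where all 3 samples lay above the vehicle samples. It was 28782, 25039 and 25768 CPM in the IGF1 samples, all below the vehicle minimum of 29246 CPM, with replicate 1 the nearest to it. The IGF1 mean was 26530 ± 1985 CPM (SD, n = 3), and 25403 ± 516 CPM (SD, n = 2) without replicate 1. The order of phenylephrine and vehicle thus depended on the scaling, and that of IGF1 below both did not. In bulk samples, fewer cells of a type and less RNA per cell cannot be told apart.

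**Figure D1:**
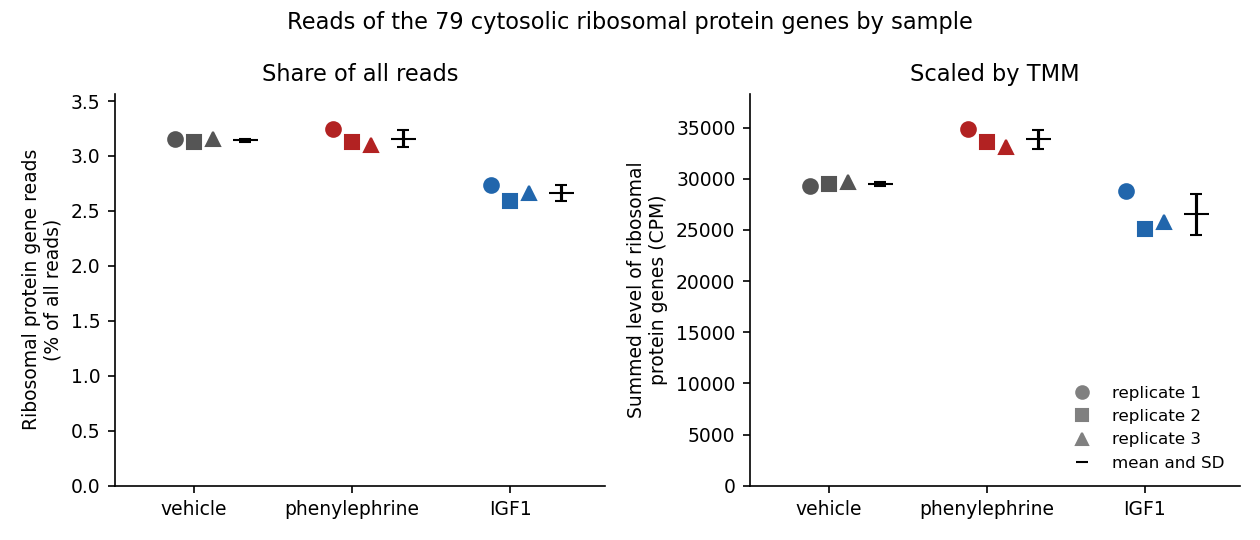
Share of all reads taken by the 79 ribosomal protein genes (left, % of all reads) and their summed level after TMM scaling (right, CPM), for each sample, with the mean and SD of each group of 3. The 3 IGF1 samples are lowest on both scales, whereas phenylephrine lies above vehicle only after TMM scaling.

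The proportion of large to small subunit reads varied little, and was lower in every phenylephrine sample than in any other. Large subunit genes held 1.4282, 1.4287 and 1.4357 reads for each small subunit read in vehicle, 1.4198, 1.4146 and 1.4276 in the phenylephrine group and 1.4315, 1.4515 and 1.4495 in the IGF1 group. The group means were 1.43 ± 0.0042, 1.42 ± 0.0066 and 1.44 ± 0.011 (SD, n = 3 each), and the 9 samples ran from 1.41 to 1.45.

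Phenylephrine against vehicle addressed the response to an adrenergic growth signal. Of the 79 members, 57 were higher and 0 lower, where 27.9% of all genes tested were higher and 28.9% lower, but scaled by library size only 23 were higher and 16 lower (14.7% and 48% of all genes). Those 23 were higher under each of the 6 scalings tried. Library size only lowered all genes most, so the other scalings could hardly take these calls away. The members' median log2 fold change was 0.24, against -0.03 for all genes tested. Scaling by library size moved the median of all genes to -0.22 and that of the members to 0.045. The distance between the medians was 0.27 both ways, which holds by construction, since a scaling shifts all genes of a sample alike. No member was lower at an unadjusted p under 0.05, nor with DESeq2 or limma-voom, while 2 were lower with upper quartile scaling. By ranges, 65 members had every phenylephrine sample above every vehicle sample (32.6% of all genes did) and 1, Rpl10, had them below (34% did). Without IGF1 replicate 1, which enters the shared estimate of the spread, 65 members were higher and 1 lower, against 31.2% and 32.2% of all genes.

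The largest rise was that of Rpl22l1, which encodes a paralog of the large subunit protein Rpl22. Its level was 62.3, 60.5 and 66.6 CPM in vehicle and 102, 101 and 95.1 CPM with phenylephrine, without overlap. The log2 fold change was 0.65 (SE 0.06, adjusted p = 2.3e-07, edgeR), a 1.57-fold rise, and 0.46 by library size only. Rpl38, a small protein of the large subunit known for its part in the translation of Hox messenger RNAs, stood at 135, 139.7 and 144 CPM in vehicle and 201, 187 and 189 CPM with phenylephrine. Every treated sample was above every vehicle sample, with a log2 fold change of 0.46 (SE 0.06, adjusted p = 6.5e-06, edgeR) and 0.27 by library size only. Rps25, which some viral internal entry sites need to start translation, went from 247, 241 and 252 CPM to 345, 352 and 315 CPM. Its groups did not overlap either, and its log2 fold change was 0.45 (SE 0.06, adjusted p = 3.8e-05).

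Next in size were 3 further proteins of the large subunit. Rpl35, which sits near the mouth of the tunnel through which the new chain leaves, read 314, 312 and 296 CPM in vehicle and 434, 409 and 398 CPM with phenylephrine, a log2 fold change of 0.43 (SE 0.06). Rpl27a read 425, 419 and 416 CPM and 574, 558 and 544 CPM, a log2 fold change of 0.41 (SE 0.05). Rpl4, which lines that tunnel, read 896, 891 and 912 CPM and 1213, 1169 and 1164 CPM, a log2 fold change of 0.39 (SE 0.05). In each of these 3 genes the lowest treated sample was far above the highest vehicle sample, the largest adjusted p among them was 1.9e-05 (edgeR), and the rise passed the test by library size only as well. The 57 members that rose ranged from 0.11 to 0.65 on the log2 scale with a median of 0.28.

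The 22 members that did not pass ranged from -0.57 to 0.36. The lowest of them, Rpl37a, also has the fewest reads, and its SE was 0.44. Several that did not pass were among the members with most reads. Rpl3, which reaches toward the site of peptide bond formation, stood at 1152, 1149.9 and 1133 CPM in vehicle and 1219, 1173 and 1174 CPM with phenylephrine, with a log2 fold change of 0.05 (SE 0.04, adjusted p = 0.3). Rpl10, which joins the large subunit late in its assembly, stood at 989, 993 and 999.7 CPM and 983, 937 and 936 CPM. Its treated samples lay just below its vehicle samples, with a log2 fold change of -0.06 (SE 0.05, adjusted p = 0.28), and the adjusted p was 0.049 without IGF1 replicate 1. Rpl5 had a log2 fold change of -0.03 (SE 0.04). All 3 were lower by library size only, at -0.14, -0.26 and -0.22, which is above the shift of -0.22 of all genes for Rpl3 and close to it for the others.

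IGF1 against vehicle addressed the response to a growth factor, and used the same vehicle samples. Here 3 members were higher and 38 lower, where 24.7% of all genes tested were higher and 23.4% lower, and by library size only 2 were higher and 61 lower (17.1% and 30.4% of all genes). The median log2 fold change was -0.14 for the members and -0.0018 for all genes tested. All 38 were lower under each of the 6 scalings. The scalings that moved all genes most moved them down, to medians of -0.039 (upper quartile) and -0.085 (library size only). A call of lower could therefore hardly be lost. Without IGF1 replicate 1, 2 members were higher and 64 lower, against 27.4% and 26.6% of all genes, and the 38 were all among the 64. The members' median was then -0.19. By ranges, 34 members had every IGF1 sample below every vehicle sample (27.7% of all genes did) and 4 had them above (28.8% did).

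The largest fall was that of Rpl7a, a large subunit protein, at 18.7, 18.5 and 18.9 CPM in vehicle and 15.2, 10.7 and 13.6 CPM with IGF1. The groups did not overlap and replicate 1 was the nearest to vehicle, with a log2 fold change of -0.52 (SE 0.11, adjusted p = 0.00093, edgeR), or -0.62 without that replicate. This member has few reads for a ribosomal protein gene, 461 to 977 per sample. Rps28, a small protein near the exit of the messenger RNA, stood at 161, 176 and 161 CPM and 135, 113 and 119 CPM. All IGF1 samples were below all vehicle samples, and the log2 fold change was -0.44 (SE 0.06, adjusted p = 2.4e-05, edgeR), that is 1.36-fold lower. Rpl12, at the base of the stalk that receives translation factors, stood at 375, 366 and 377 CPM and 300.4, 273 and 281 CPM. Its log2 fold change was -0.39 (SE 0.05, adjusted p = 1.2e-05, edgeR), again without overlap.

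Rps14, a protein of the small subunit platform, fell from 314, 307 and 316 CPM to 259, 225 and 235 CPM, with a log2 fold change of -0.38 (SE 0.05). Rpl10 fell from 989, 993 and 999.7 CPM to 829.8, 739 and 767 CPM, with -0.35 (SE 0.05), and Rps27 from 490.3, 517 and 519 CPM to 434, 380.0 and 392 CPM, with -0.34 (SE 0.05). In these 3 genes every IGF1 sample lay below every vehicle sample, and the largest adjusted p was 7.1e-05 (edgeR). Rpl3, the member with the most reads, stood at 982, 911 and 924 CPM with IGF1, below all vehicle samples, with a log2 fold change of -0.29 (SE 0.04, adjusted p = 7.3e-05). The 38 members that fell ranged from -0.52 to -0.12.

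The 3 members that rose with IGF1 were not core ribosomal proteins but paralog copies and a binding protein. Rps27l, a paralog of Rps27 known as a p53-responsive gene, stood at 106, 115 and 121 CPM in vehicle and 167, 145 and 142 CPM with IGF1, without overlap. Its log2 fold change was 0.41 (SE 0.06, adjusted p = 8.2e-05, edgeR), and 0.33 without replicate 1. Rpl22l1 stood at 91.3, 80.9 and 79.6 CPM with IGF1, above its vehicle samples, with a log2 fold change of 0.41 (SE 0.06, adjusted p = 3.2e-05, edgeR) and 0.34 without replicate 1. Rps19bp1 belongs to the members by its symbol only, since it encodes a protein that binds Rps19. It stood at 8.23, 8.26 and 8.18 CPM in vehicle and 11.4, 10.5 and 8.59 CPM with IGF1, where the samples were above vehicle but differed widely from each other. Its log2 fold change was 0.30 (SE 0.10, adjusted p = 0.025, edgeR), and it did not pass without IGF1 replicate 1 or 2 or any 1 of the vehicle replicates (adjusted p = 0.066 to 0.086). With phenylephrine it had 0.28 (adjusted p = 0.036, edgeR). That call was lost in 7 of the 9 fits that left out 1 sample (adjusted p = 0.050 to 0.10) and with upper quartile scaling (0.096).

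Phenylephrine against IGF1 compared the stimuli directly. Of the 79 members, 72 were higher with phenylephrine and 1 was lower, where 27.1% of all genes tested were higher and 27.1% lower. The members' median log2 fold change was 0.34 and that of all genes -0.0025. By library size only, where the median of all genes was -0.11, 69 members were higher and 2 lower (18% and 36.8% of all genes), and 69 and 1 kept their call under each of the 6 scalings. Here too library size only lowered all genes most, so a call of higher made with it could hardly be lost. Without IGF1 replicate 1 the calls were 73 and 1, against 30.4% and 30.2% of all genes, and the median was 0.42. Every phenylephrine sample was above every IGF1 sample in 71 members (29.3% of all genes) and below in 1 (29.5%). These samples also enter the comparisons with vehicle, so the 3 comparisons are not independent.

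Rps28 was among the members that differed most, at 187, 187 and 183 CPM with phenylephrine against the IGF1 values above. The groups were far apart, with a log2 fold change of 0.61 (SE 0.06, adjusted p = 7.7e-07, edgeR), that is 1.52-fold higher. Close to it were 4 large subunit genes. Rpl27a was at 402, 346 and 360.4 CPM with IGF1 and had a log2 fold change of 0.60 (SE 0.05). Rpl34 was at 368, 355 and 343 CPM with phenylephrine and 253, 231 and 226 CPM with IGF1, with 0.59 (SE 0.05). Rpl12 had a log2 fold change of 0.58 (SE 0.05) and Rpl37 one of 0.55 (SE 0.06). The adjusted p of these 4 was at most 1e-06 (edgeR), and in each the lowest phenylephrine sample was above the highest IGF1 sample. Rps27l was the only member lower with phenylephrine than with IGF1 under this scaling, at 131, 127 and 124 CPM, with a log2 fold change of -0.25 (SE 0.06, adjusted p = 0.0034, edgeR). By library size only Rps4y2 was lower too, at -0.22.

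**Figure D2:**
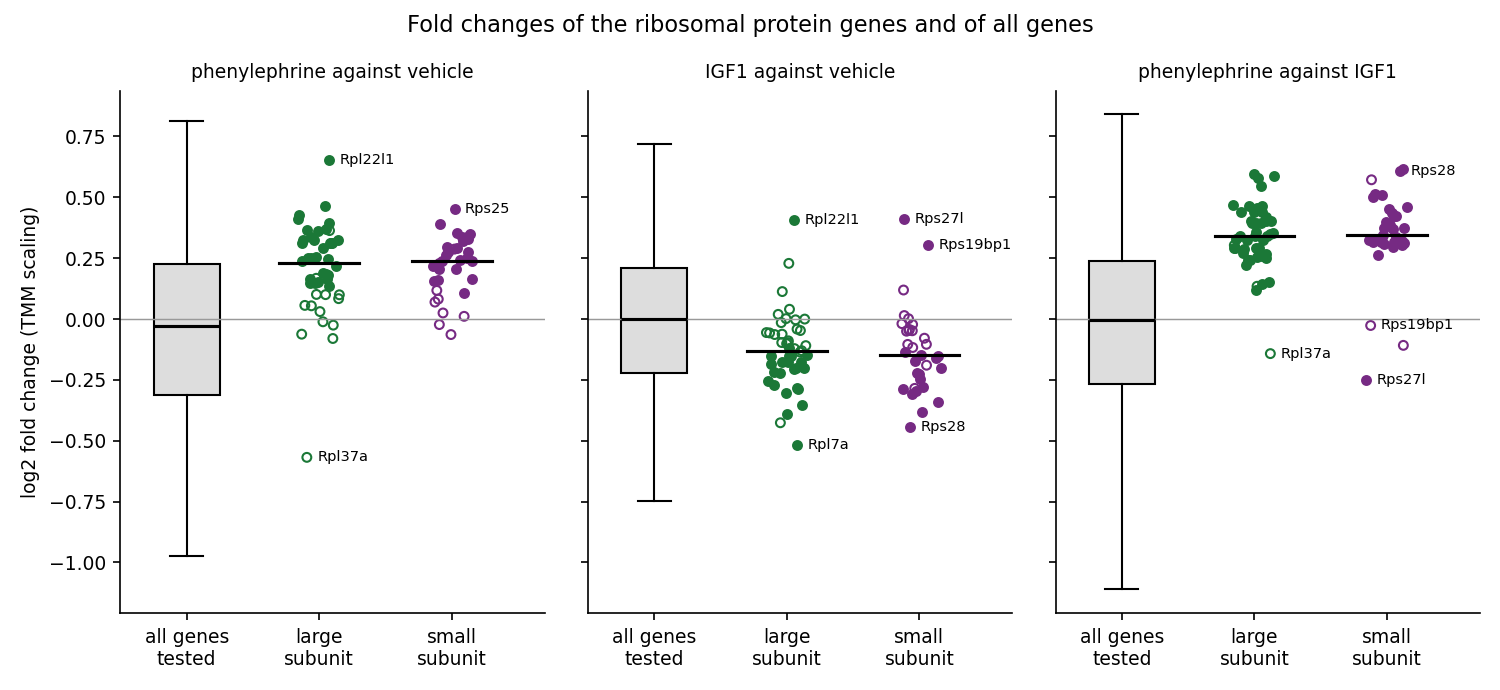
log2 fold changes (TMM scaling) in the 3 comparisons, with all 11873 genes tested as a box (quartiles and median, whiskers from the 5th to the 95th percentile) and each ribosomal protein gene as a point, by subunit. Filled points passed an adjusted p of 0.05, and black lines are the subunit medians. The large and small subunit genes lie at like heights in each panel, above the median of all genes with phenylephrine and below it with IGF1. Scaled by library size only, the points and the box shift alike by construction, so the distance between them hardly changes.

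Large and small subunit genes did much the same in every comparison. With phenylephrine 32 of 46 large and 25 of 33 small subunit genes were higher than vehicle (27.9% of all genes tested), with medians of 0.23 and 0.24. By library size only 16 large subunit genes were higher and 11 lower, and 7 small subunit genes were higher and 5 lower. The shares of all genes were then 14.7% and 48%. With IGF1 22 large and 16 small subunit genes were lower (23.4% of all genes tested), with medians of -0.13 and -0.15. By library size only 36 and 25 were lower (30.4% of all genes). Between the stimuli the medians were both 0.34. The members were also closely spaced. The SD of their log2 fold changes was 0.16 with phenylephrine, 0.17 with IGF1 and 0.15 between the stimuli, against 0.61, 0.48 and 0.64 over all genes tested. It was 0.20, 0.20 and 0.21 over 68 mitochondrial ribosomal protein genes. Over 21 translation factors and other genes with the same kind of transcript start it was 0.29, 0.22 and 0.15. Close spacing was thus not particular to the members.

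**Figure D3:**
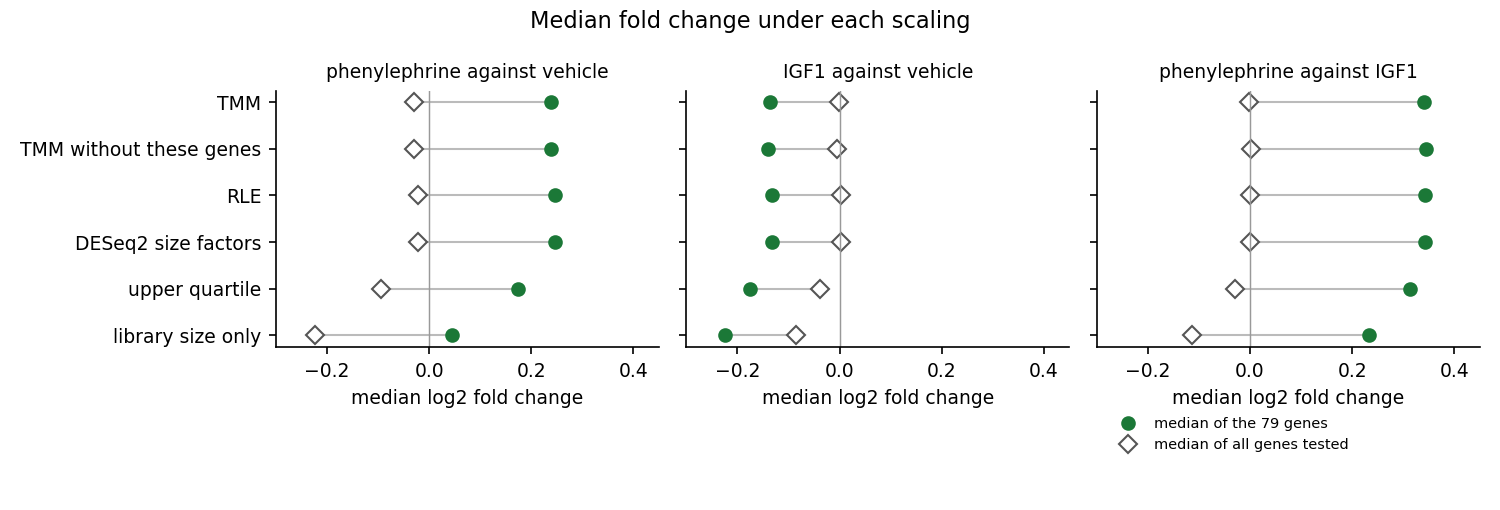
Median log2 fold change of the 79 ribosomal protein genes (filled circles) and of all genes tested (open diamonds) under 6 scalings, in the 3 comparisons. Both medians move together by construction, and the members stay 0.27 above all genes for phenylephrine against vehicle. Their own median there drops to 0.045 by library size only.

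The distance of the members from all genes cannot depend much on the scaling, since a scaling shifts all genes of a sample alike. It is therefore no measure of how firm a rise or fall is. For phenylephrine against vehicle it was 0.27 on the log2 scale with TMM and with library size only. For IGF1 against vehicle it was -0.14 in both, and for phenylephrine against IGF1 it was 0.34 and 0.35. Computing the TMM factors without the members gave 57 higher with phenylephrine and 38 lower with IGF1, as with all genes.

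The level of each gene by sample showed that the members moved together within a sample too. IGF1 replicate 1 was the highest of the IGF1 samples in 76 of the 79 members, and replicate 2 the lowest in 65. In replicate 1, 36 members were below all vehicle samples, against 71 in replicate 2 and 66 in replicate 3. Phenylephrine replicate 1 was the highest of its group in 68 members. The shares of all genes with such orders were not computed. IGF1 replicate 1 minus replicates 2 and 3 gave median log2 differences of 0.21 and 0.16 for the members. For all genes tested these were -0.0058 and -0.0029. For phenylephrine replicate 1 minus replicates 2 and 3 the medians were 0.050 and 0.085, against 0.00047 and 0.00087 for all genes tested. Such shared shifts mean that the members are not separate observations of a condition.

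**Figure D4:**
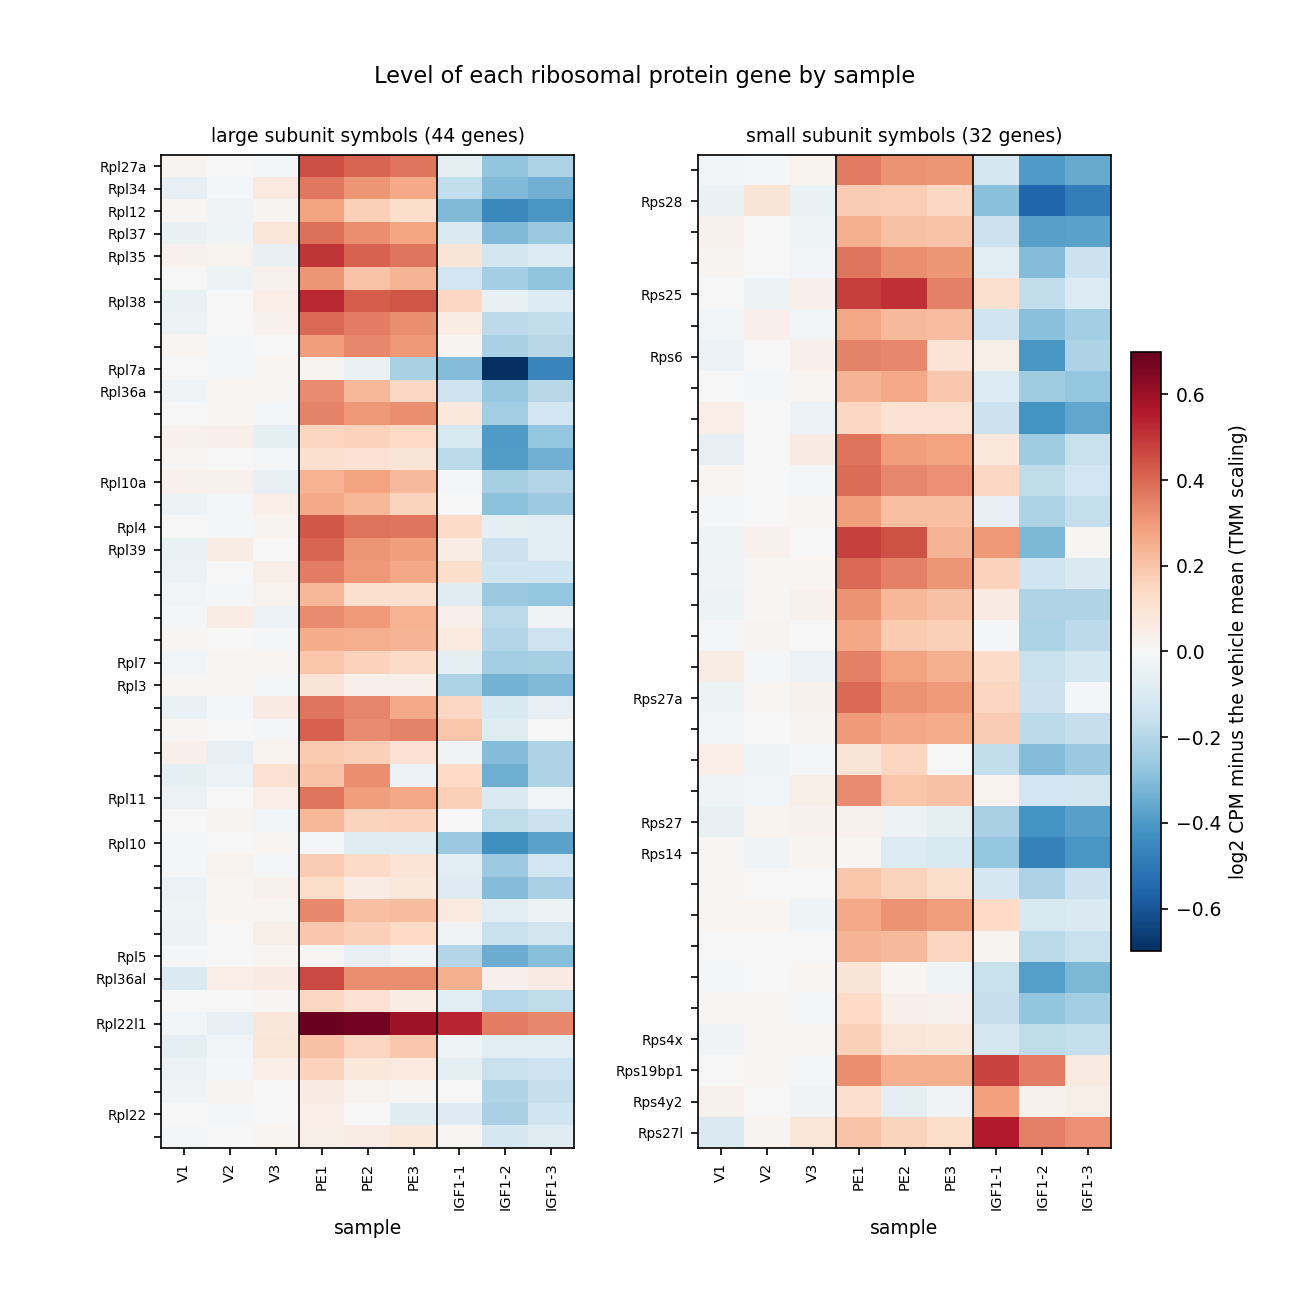
Level of 76 ribosomal protein genes in each sample, as log2 CPM minus the mean of the vehicle samples (TMM scaling, colours limited at 0.7), for genes with at least 1000 reads in total, 44 of the large and 32 of the small subunit. Genes are ordered by their difference between phenylephrine and IGF1, names are shown for genes described in the text, V is vehicle and PE phenylephrine. Most genes are red with phenylephrine and blue in IGF1 replicates 2 and 3, paler in IGF1 replicate 1, while Rpl22l1, Rps27l and Rps19bp1 are red in both treatments. The colours would shift by a constant per sample under another scaling.

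Paralog pairs were compared within each library, since the ratio of their reads does not depend on scaling. Rpl22 and Rpl22l1 encode alternative versions of the same large subunit protein. In vehicle 64.9, 63.6 and 69.4 reads of Rpl22l1 were counted per 100 reads of Rpl22, against 103.1, 105.3 and 105.2 with phenylephrine and 101.7, 98.9 and 91.7 with IGF1. Both treated groups lay above vehicle without overlap, with means of 66.0 ± 3.06, 104.5 ± 1.25 and 97.4 ± 5.18 (SD, n = 3 each), so that the ratio was 1.58-fold and 1.48-fold that of vehicle. Rpl22 itself stood at 96.1, 95.2 and 96.0 CPM in vehicle, 98.9, 95.8 and 90.3 CPM with phenylephrine and 89.8, 81.7 and 86.9 CPM with IGF1, with overlap between vehicle and phenylephrine. Its log2 fold change was -0.01 (adjusted p = 0.85) with phenylephrine and -0.15 (adjusted p = 0.014, edgeR) with IGF1, where it did not pass without IGF1 replicate 2 (adjusted p = 0.052). The motif windows of this pair differ as well, since that of Rpl22 holds the motif at the start and that of Rpl22l1 does not.

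Rps27 and Rps27l diverged in the same sense and mostly with IGF1. In vehicle 21.6, 22.2 and 23.3 reads of Rps27l were counted per 100 of Rps27, 25.1, 25.6 and 25.5 in the phenylephrine samples, and 38.5, 38.2 and 36.2 in the IGF1 samples. The 3 groups did not overlap, and the IGF1 mean of 37.6 ± 1.25 was 1.68-fold the vehicle mean of 22.4 ± 0.85 (SD, n = 3 each). Rps27l had a log2 fold change with phenylephrine of 0.16 (SE 0.06, adjusted p = 0.041, edgeR), which became -0.03 by library size only, and Rps27 one of -0.02 (adjusted p = 0.72). The call of Rps27l with phenylephrine was lost with the replicate block (adjusted p = 0.065) and with upper quartile scaling (0.17). It was also lost without vehicle replicate 1 or 2, any 1 of the phenylephrine replicates or IGF1 replicate 2 (0.056 to 0.25). In this pair too the window of Rps27 holds the motif at the start and that of Rps27l does not. Of the pairs described below, Rpl39 has it at the start and Rpl39l has none within 10 bases. Rpl36a and Rpl36al do not differ in this way, nor do Rps4x and Rps4y2. Each of these has it within 10 bases and none at the start. A link of the motif with the ratios was not tested.

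Rpl36a and Rpl36al, which encode nearly identical large subunit proteins, gave 68.2, 73.6 and 74.8 reads of Rpl36al per 100 of Rpl36a in vehicle. It gave 78.8, 76.8 and 81.6 in the phenylephrine samples and 94.8, 89.0 and 85.8 in the IGF1 samples. The groups followed each other without overlap, with means of 72.2 ± 3.50, 79.1 ± 2.40 and 89.9 ± 4.58 (SD, n = 3 each). Rpl36al rose with phenylephrine by 0.37 on the log2 scale (adjusted p = 0.00018, edgeR), and had 0.11 with IGF1 (adjusted p = 0.15), or 0.04 without IGF1 replicate 1. Rpl36a had 0.24 with phenylephrine (adjusted p = 0.00069), 0.05 by library size only, and fell by 0.20 with IGF1 (adjusted p = 0.0032).

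**Figure D5:**
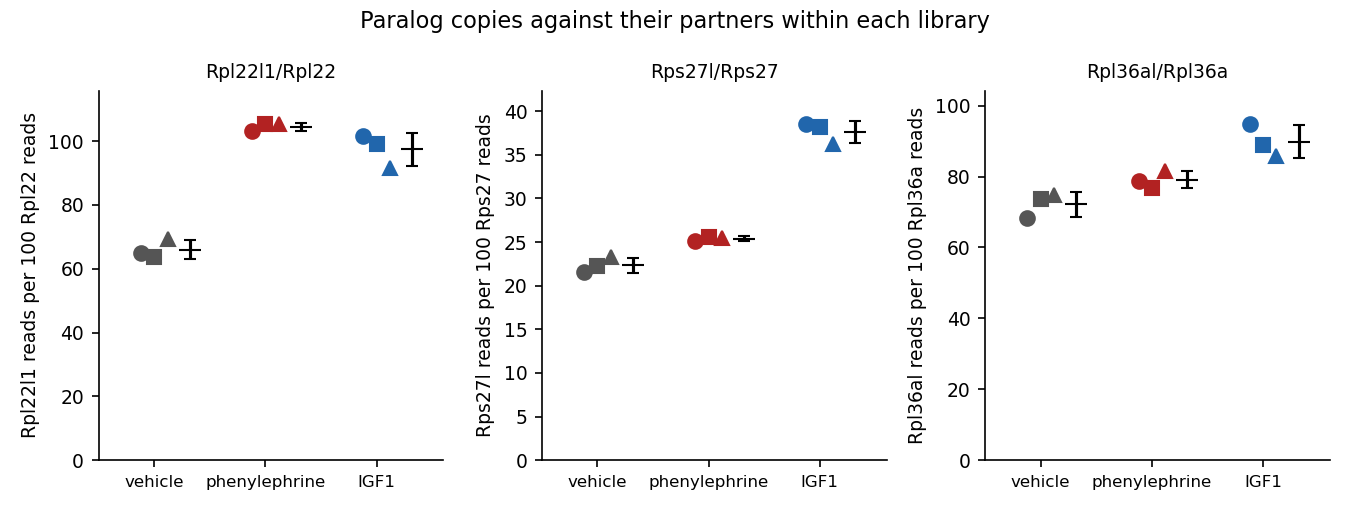
Reads of a paralog copy per 100 reads of its partner in each library, for Rpl22l1 against Rpl22, Rps27l against Rps27 and Rpl36al against Rpl36a (circle, square and triangle for replicates 1, 2 and 3), with the mean and SD of each group of 3. All samples of both treated groups lie above all vehicle samples in the 3 pairs, and IGF1 replicate 1 lies with or just above its group.

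The other paralogs had fewer reads. Rps4y2, a copy of the small subunit gene Rps4x, had 405 to 685 reads per sample. It gave 1.55, 1.48 and 1.45 reads per 100 of Rps4x in vehicle, 1.44, 1.35 and 1.40 in the phenylephrine samples and 1.97, 1.72 and 1.73 in the IGF1 samples. The phenylephrine samples were all below the vehicle samples, by a small margin, unlike in the 3 pairs above. The IGF1 samples were the highest, yet the log2 fold change of Rps4y2 with IGF1 was 0.12 (adjusted p = 0.27; 0.04 without IGF1 replicate 1) while Rps4x fell by 0.15 (adjusted p = 0.0082, edgeR). With phenylephrine Rps4x had a log2 fold change of 0.11 (adjusted p = 0.042, edgeR), which became -0.09 by library size only. It did not pass with any 1 sample left out other than IGF1 replicate 1 (adjusted p = 0.053 to 0.19). Nor did it pass with the replicate block (0.062), no filter on low counts (0.052), a filter at 50 reads (0.051) or upper quartile scaling (0.37). Rpl39l, best known from testis, had 14 to 53 reads per sample and passed in no comparison, where the smallest adjusted p was 0.36 (edgeR). Its partner Rpl39, which lines the exit tunnel, had log2 fold changes of 0.34 with phenylephrine (adjusted p = 6.6e-05) and -0.06 with IGF1 (adjusted p = 0.4). With IGF1 it fell by 0.11 without IGF1 replicate 1 (adjusted p = 0.012) and by 0.14 by library size only (adjusted p = 0.015). With 3 samples against 3, an exact permutation test of such ratios cannot give a p below 0.1, so none is given. Reads of near-identical copies may have been assigned to the wrong partner, and this was not tested.

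Several members have known roles outside the ribosome or in disease. Rpl5 and Rpl11 together bind Mdm2, the regulator of p53, when ribosome assembly is disturbed. Rpl11 stood at 401, 414 and 427 CPM in vehicle, 535, 507 and 499 CPM with phenylephrine and 465, 385 and 408 CPM with IGF1. Phenylephrine lay above vehicle without overlap (log2 fold change 0.31, SE 0.06, adjusted p = 0.00042, edgeR), while the IGF1 samples fell on both sides of it (0.02, adjusted p = 0.82). Rpl5 stood at 896, 903 and 914 CPM in vehicle, 908, 870.0 and 888 CPM with phenylephrine and 785, 711 and 735 CPM with IGF1, where it fell by 0.28 on the log2 scale (SE 0.04, adjusted p = 0.00011, edgeR). The difference between the responses of these genes was not tested.

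Rps6, the substrate of the S6 kinases, stood at 42.0, 43.3 and 44.3 CPM in vehicle, 55.0, 54.6 and 46.1 CPM with phenylephrine and 44.4, 32.5 and 37.2 CPM with IGF1. All phenylephrine samples were above vehicle, with a log2 fold change of 0.26 (SE 0.10, adjusted p = 0.048, edgeR), or 0.07 by library size only. This call was lost without any 1 of the vehicle replicates, phenylephrine replicate 1 or 2, or IGF1 replicate 3 (adjusted p = 0.083 to 0.15). It was also lost with no filter on low counts (0.068) and with upper quartile scaling (0.093). The IGF1 samples overlapped vehicle (-0.19, adjusted p = 0.16), and the gene fell without IGF1 replicate 1 (-0.31, adjusted p = 0.00031). Rps19, mutated in Diamond-Blackfan anaemia, had levels of 0.505, 1.10 and 0.795 CPM in vehicle, 1.34, 1.02 and 0.549 CPM with phenylephrine and 0.560, 0.745 and 0.629 CPM with IGF1, which overlapped throughout. At 17 to 45 reads per sample, a change in Rps19 of the size seen in other members was not detectable, since the SE with phenylephrine was 0.36. Rpl10a, a large subunit protein found on only part of the ribosomes in some cells, rose with phenylephrine by 0.25 (adjusted p = 0.00096), 0.06 by library size only, and fell by 0.15 with IGF1 (adjusted p = 0.03). That fall did not pass without vehicle replicate 1 or 2 or IGF1 replicate 2 or 3 (adjusted p = 0.083 to 0.098). It did not pass either with only the 2 groups compared (adjusted p = 0.071). Rps27a, made as a fusion with ubiquitin, had log2 fold changes of 0.34 with phenylephrine (adjusted p = 0.0003) and 0.00 with IGF1 (adjusted p = 0.99, edgeR).

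Of the 6 members that rose most with phenylephrine, Rpl22l1 also rose with IGF1, Rpl27a fell by 0.18 (adjusted p = 0.0078, edgeR), and Rpl38, Rps25, Rpl35 and Rpl4 did not pass against vehicle. Rpl38 was at 154, 135 and 130.4 CPM with IGF1, on both sides of its vehicle values, and Rpl4 at 986, 860.5 and 851 CPM. The log2 fold changes were 0.00 for Rpl38, -0.05 for Rps25, -0.04 for Rpl35 and -0.00019 for Rpl4, with adjusted p-values of 0.98, 0.56, 0.57 and 0.998 (edgeR). Without IGF1 replicate 1, Rps25 fell by 0.13 (adjusted p = 0.0033), Rpl35 by 0.11 (adjusted p = 0.0058) and Rpl4 by 0.07 (adjusted p = 0.045), while Rpl38 had -0.07 (adjusted p = 0.091). Rpl7 passed in each comparison with vehicle. It stood at 731 ± 9.0 CPM in vehicle, 819 ± 16.8 CPM with phenylephrine and 647 ± 43.8 CPM with IGF1 (SD, n = 3 each), with log2 fold changes of 0.16 (adjusted p = 0.0096; -0.03 by library size only) and -0.18 (adjusted p = 0.0073, edgeR). Its rise did not pass without vehicle replicate 1 (adjusted p = 0.059) or with upper quartile scaling (adjusted p = 0.065).

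Members with and without the motif at the annotated start were described side by side, with no test. Over all genes tested, 27.9% were higher with phenylephrine and 23.4% lower with IGF1. The 22 with it had a median log2 fold change of 0.17 with phenylephrine and -0.16 with IGF1, with 14 higher and 14 lower. The 42 without it had medians of 0.26 and -0.10, with 31 higher with phenylephrine and 15 lower with IGF1. For phenylephrine against IGF1 the medians were 0.36 and 0.33. Divided instead by the motif within 10 bases, the phenylephrine medians were close, at 0.24 for the 47 with it and 0.25 for the 17 without it. With IGF1 they were -0.15 and -0.10. Of the 47, 34 were higher with phenylephrine and 24 lower with IGF1, and of the 17 these were 11 and 5. The 3 members that rose with IGF1 are all among those without it.

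Genes that work beside the members were read from lists. Over all genes tested, 27.9% were higher and 28.9% lower with phenylephrine than vehicle, and 24.7% and 23.4% with IGF1. By library size only these shares were 14.7% and 48%, and 17.1% and 30.4%. Without IGF1 replicate 1 they were 27.4% and 26.6% with IGF1. For phenylephrine against IGF1, 27.1% were higher and 27.1% lower. Of 7 further cytosolic ribosomal protein genes whose symbols the rule misses, such as Rplp0, Rpsa and Fau, 5 were higher with phenylephrine than vehicle, with a median of 0.24, and by library size only 1 was higher and 2 lower. With IGF1 3 of the 7 were lower, 5 by library size only and 6 without IGF1 replicate 1, and all 7 were higher with phenylephrine than with IGF1. Rpsa, a small subunit protein, had a log2 fold change of 0.42 with phenylephrine (adjusted p = 3.1e-05, edgeR) and Fau, made as a fusion with a ubiquitin-like protein, fell by 0.26 with IGF1 (adjusted p = 0.00062, edgeR).

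The list of ribosome assembly and RNA polymerase I genes held 36 names, of which 32 were tested. With phenylephrine 26 of the 32 were higher and 2 lower (27.9% and 28.9% of all genes), with a median of 0.42. By library size only 19 were higher and 5 lower (14.7% and 48%). With IGF1 9 were higher and 9 lower (24.7% and 23.4% of all genes). The IGF1 counts were 3 and 12 by library size only and 7 and 12 without IGF1 replicate 1. For phenylephrine against IGF1, 27 were higher (27.1% of all genes). Myc, a transcription factor known to drive ribosome synthesis, was at 22.1, 21.9 and 19.7 CPM in vehicle, 46.4, 43.6 and 42.5 CPM with phenylephrine and 12.2, 7.75 and 9.28 CPM with IGF1. It lay above vehicle with phenylephrine (log2 fold change 1.06, SE 0.12, adjusted p = 1.1e-05) and below it with IGF1 (-1.14, SE 0.13, adjusted p = 1.5e-05, edgeR). Bysl, needed to mature the small subunit, rose by 1.01 with phenylephrine and by 0.55 with IGF1 (adjusted p = 1.1e-05 and 0.0012, edgeR). The 2 genes lower with phenylephrine were Npm1, at -0.21, and Ubtf, at -0.15 (adjusted p = 0.0014 and 0.0025, edgeR).

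Of 21 translation factors and other genes with the same kind of transcript start, 10 were higher and 7 lower with phenylephrine. With IGF1 2 were higher and 9 lower, and the medians were 0.10 with phenylephrine and -0.092 with IGF1. Over all genes tested, 27.9% were higher and 28.9% lower with phenylephrine, and 24.7% and 23.4% with IGF1. By library size only 5 were higher and 10 lower with phenylephrine, and 1 higher and 13 lower with IGF1. Without IGF1 replicate 1 the IGF1 counts were 2 and 13. Eef1b2, a subunit of the elongation factor that recharges Eef1a1, rose by 0.63 with phenylephrine (adjusted p = 7.1e-08, edgeR), while Eif4b, a helper of the initiation helicase, fell by 0.45 with phenylephrine and 0.46 with IGF1 (adjusted p = 1.4e-07 and 1.9e-07, edgeR). Eef1a1 fell by 0.43 with IGF1 (adjusted p = 4e-06). Among 16 genes of mTORC1, the S6 kinases and their targets, 7 were higher and 6 lower with phenylephrine. With IGF1 6 were higher and 3 lower, where 7 were lower without IGF1 replicate 1 and 6 by library size only. The same shares of all genes stand beside these counts. Mtor rose by 0.68 with phenylephrine and Eif4ebp1, a repressor that mTORC1 releases, by 0.83 (adjusted p = 6.1e-07 and 0.0046, edgeR). Pdcd4, a repressor that the S6 kinases mark for decay, fell by 0.85 and Larp4b by 0.56 (adjusted p = 2.1e-07 and 7.7e-08, edgeR). With IGF1 Ddit4 and Eif4e rose by 0.68 and 0.58, and Tsc1 and Eif4ebp2 fell by 0.37 and 0.25. The largest adjusted p among these IGF1 changes was 0.0039 (edgeR).

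The mitochondrial ribosomal protein genes had other counts with IGF1, although no test of the difference between the lists was made. Of 68 such genes, 41 were higher and 1 lower with IGF1 than vehicle, with a median of 0.23. The cytosolic members had 3 higher and 38 lower, and of all genes tested 24.7% were higher and 23.4% lower. By library size only the mitochondrial counts were 35 and 3, and without IGF1 replicate 1 they were 42 and 3. With phenylephrine 35 were higher and 3 lower (27.9% and 28.9% of all genes), with a median of 0.17. By library size only 16 were higher and 18 lower (14.7% and 48%). Mrps22 and Mrpl50 each rose by 0.59 with IGF1 (adjusted p = 4.5e-06 and 5.6e-08, edgeR), and Mrpl52 fell by 0.29 (adjusted p = 0.00036). For phenylephrine against IGF1 11 of the 68 were higher and 24 lower, where 72 of the 79 cytosolic genes were higher. The mitochondrial counts were 9 and 40 by library size only and 17 and 23 without IGF1 replicate 1. Of all genes tested, 27.1% were higher and 27.1% lower. Those shares were 18% and 36.8% by library size only, and 30.4% and 30.2% without IGF1 replicate 1.

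Markers of the cells that such a culture can hold were read from 9 lists. Beside their counts stand the shares of all genes tested. These were 27.9% higher and 28.9% lower with phenylephrine, and 24.7% and 23.4% with IGF1. All 10 cardiomyocyte markers had reads, among them Tnnt2, Myh6 and Actc1 of the contractile apparatus, and their summed level was 48368 to 52155 CPM in vehicle, 73192 to 74021 CPM with phenylephrine and 55645 to 78166 CPM with IGF1. With phenylephrine 7 were higher and 3 lower than vehicle, and with IGF1 6 were higher and 1 lower. The 10 fibroblast markers, of which 9 were tested, summed to 5036 to 6021 CPM, 4675 to 4768 CPM and 5920 to 6831 CPM in the same order, with 1 higher and 4 lower with phenylephrine and 4 higher and 1 lower with IGF1. The 8 smooth muscle and pericyte markers summed to 3461 to 3525, 7078 to 7323 and 3649 to 5477 CPM, with 5 higher and 1 lower with phenylephrine and 1 higher and 2 lower with IGF1. The 8 endothelial markers summed to 69.5 to 78.4, 56.7 to 68.1 and 28.3 to 34.4 CPM, with 1 higher and 1 lower with phenylephrine and 0 higher and 5 lower with IGF1.

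The 9 macrophage and leukocyte markers stayed between 61.4 and 82.8 CPM in all samples, 4 epicardial markers between 16.3 and 21.0 CPM and 4 Schwann cell markers between 7.99 and 15.2 CPM. Of 8 erythroid markers, 5 had a row and summed to at most 1.91 CPM. The 5 proliferation markers summed to 373.7 to 462 CPM in vehicle, 285 to 307 CPM with phenylephrine, where 4 were lower and 0 higher, and 834 to 976 CPM with IGF1, where all 5 were higher. No listed marker with a row was at 0 in all samples. The part of other cells or of proliferation in the ribosomal protein results was not tested.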

How the data were processed

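The deposited table holds read counts per gene, not normalized, for 9 samples of primary cardiomyocytes. Per the labels, libraries came from total RNA by a NuGEN Ovation kit, and an Illumina NovaSeq was used for sequencing. STAR, HTSeq, DESeq and the rn5 build are named in the submitters' processing notes, with no version or role. Groups and replicate numbers came from the sample titles. No row of totals or unassigned reads was found, and 26 rows carry gene names turned into dates.

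Genes were kept by filterByExpr (a count of 10 and a total of 15 as its minimums), and the 11873 genes kept held 99.99% of the counts. Counts were scaled by TMM and fitted with edgeR 4.0.16 (robust quasi-likelihood F test, R 4.3.3) over all 9 samples, and p-values were adjusted by Benjamini-Hochberg over these genes (threshold 0.05). Each SE is the size of the log2 fold change over the root of F. The fit was tested on simulated counts. At 31274396 to 48505265 reads per sample, 1 scaled CPM rested on 29.1 to 51.6 reads. Alternatives were DESeq2 1.42.0, limma-voom (limma 3.58.1), other scalings and filters, pairs of groups alone, a replicate block, a threshold of 0.01 and leaving out each sample.

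The members named are the 6 largest rises and falls past the threshold in each comparison, the paralog pairs and those nearest the read minimum. Also named are Rpl5, Rpl11, Rps6, Rps19, Rpl10a, Rpl38, Rps25, Rps27a and Rps19bp1, and up to 4 genes of each list in a comparison. Members and lists were chosen with earlier results of these data known, so the lists were described by counts and medians. The result of 1 named member is not reported here. Levels per length and protein sequences were not analysed here.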

Additional observations from a re-analysis of the deposited data

How the results depend on the processing

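Precision is limited by 3 samples a group and, for Rpl37a, Rps19 and Rpl39l, by reads. The higher count with phenylephrine against vehicle was 23 by library size only and 45 to 65 with 1 sample left out. The lower count was 16 by library size only, 2 with upper quartile scaling and 0 to 1 with 1 sample left out. The median of the members was 0.17 with upper quartile scaling and 0.045 by library size only. For IGF1 against vehicle the lower count was 61 by library size only and 30 to 64 with 1 sample left out, the highest without IGF1 replicate 1 and the lowest without IGF1 replicate 2. For phenylephrine against IGF1 the lower count was 2 by library size only. The summed level by library size only was 31423 CPM in vehicle and 31555 CPM with phenylephrine, and without the 3 members with the most reads (Rpl3, Rpl4 and Rpl10) it was 26427, 30524 and 23913 CPM in vehicle, phenylephrine and IGF1. The library size and upper quartile values differ by construction, since those scalings shift all genes, and fewer members are summed in the last case. For the samples left out, the cause was not tested.

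Samples that share a replicate number did not deviate together: the correlations of their deviations from the group means ran from -0.16 to 0.056. With the replicate block 55 members were higher with phenylephrine than vehicle, 3 were higher and 38 lower with IGF1, and 72 were higher and 1 lower for phenylephrine against IGF1. Rps27l and Rps4x with phenylephrine had adjusted p-values of 0.065 and 0.062 (edgeR) with the replicate block, and no other named member lost or gained a call with it.

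Some values near 0 changed sign. For phenylephrine against vehicle, upper quartile scaling gave -0.010 for Rpl3 and -0.053 for Rps4y2. Library size only gave -0.14 for Rpl3, -0.034 for Rps27l, -0.030 for Rpl7, -0.086 for Rps4x and -0.18 for Rps4y2. With 1 sample left out, Rpl22 ran from -0.041 to 0.025, Rps4y2 from -0.043 to 0.047 and Rps19 from -0.0094 to 0.57. For IGF1 against vehicle, upper quartile scaling gave -0.019 for Rpl11, -0.037 for Rpl38 and -0.037 for Rps27a, and library size only -0.069, -0.086 and -0.087. Rpl38 and Rps27a had -0.0023 and -0.0025 with TMM factors from the other genes, -0.0032 and -0.0037 with limma-voom, -0.0014 and -0.0017 with the filter at 50 reads, and -0.0013 and -0.0031 with the replicate block. With 1 sample left out, Rpl11 ran from -0.060 to 0.069, Rpl38 from -0.073 to 0.040, Rps25 from -0.13 to 0.0020 and Rps27a from -0.078 to 0.065. For phenylephrine against IGF1, Rps19bp1 had 0.0022 with limma-voom and ran from -0.14 to 0.059 with 1 sample left out, and Rpl39l from -0.13 to 0.35. The cause was not tested.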
